A study of Homo sapiens with 6 samples.

Results

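The replication-independent histone variant mRNAs were followed in an ORC1 RNA immunoprecipitation (RIP-seq) experiment on nuclei of HCT116, a human colorectal cancer cell line. The set held the 10 genes of the table whose symbol was H2AFZ, H2AFV, H2AFX, H2AFJ, H2AFY, H2AFY2, H3F3A, H3F3B, H1F0 or H1FX, out of 23013 genes in all. Libraries of both groups came from untreated, asynchronously growing cells with no engineered allele: 3 inputs of nuclear RNA, for which no antibody was used, and 3 immunoprecipitates with an antibody against ORC1 (ORC1 IP), the largest subunit of the origin recognition complex. Each ORC1 IP shared a RIP replicate number, 1 to 3, with an input. Nothing in the labels states that the replicates came from separate cultures, so p-values measure the spread between these samples only, which may be technical.

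As background, most histones are made in S phase from clustered, intronless genes whose mRNAs end in a conserved stem-loop instead of a poly(A) tail. Histone variants are instead made throughout the cell cycle, mostly from polyadenylated mRNAs, and are placed into chromatin by dedicated chaperones outside DNA synthesis. Among them, H2A.Z is found at promoters and has been linked to replication origins, H3.3 is deposited at active genes and at telomeres, H2A.X is phosphorylated around DNA breaks, macroH2A marks silent chromatin, and the linker histones H1.0 and H1x bind the DNA between nucleosomes.

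The word polyadenylated was checked against transcript sequence, because the RIP libraries were made from total RNA and do not separate the tails. The histone stem-loop was searched on the transcript strand in GENCODE v44 transcripts (GRCh38). It was present in all 29 protein-coding replication-dependent histone genes that matched the annotation by identifier (100%), in 0.361% of the 22157 matched genes of the table (80 genes) and in 1 of the 10 variant genes. That gene was H2AFX, which is known to give both a short stem-loop mRNA and a longer polyadenylated one. The stem-loop of H2AFX is shown beside those of 3 abundant replication-dependent histone mRNAs, with the 16 bases of stem and loop in capitals and the flanking bases in lower case.
H2AFX: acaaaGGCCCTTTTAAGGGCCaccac
HIST1H1E: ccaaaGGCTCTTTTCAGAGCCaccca
HIST1H1C: caaaaGGCTCTTTTCAGAGCCacca
HIST1H2BD: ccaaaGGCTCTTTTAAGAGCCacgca
In HIST1H1E and HIST1H2BD 5 bases followed the stem-loop in the transcript, and in HIST1H1C 4 bases did. In H2AFX the stem-loop was followed by a further 1024 bases of the 1592-nt transcript and by 821 bases of the 1373-nt transcript. Gene counts do not separate reads of the short H2AFX form from those of the long forms.

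Pairs of these genes encode the same or nearly the same protein from different mRNAs, which decides how far their reads can be told apart. H3F3A and H3F3B both encode H3.3. Their coding sequences of 411 nt differed at 88 bases (78.6% identity) and at 79 of 136 codons, with 0 amino acid differences. The first 90 coding bases of each are given with the bases that differ between the pair in capitals, 21 in number.
H3F3A: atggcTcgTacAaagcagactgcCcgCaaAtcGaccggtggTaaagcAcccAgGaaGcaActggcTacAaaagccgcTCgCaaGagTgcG
H3F3B: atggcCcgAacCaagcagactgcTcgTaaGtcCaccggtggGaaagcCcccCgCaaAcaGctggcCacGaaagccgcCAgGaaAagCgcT
H2AFZ and H2AFV encode H2A.Z.1 and H2A.Z.2. Their coding sequences of 387 nt differed at 76 bases (80.4% identity) and at 67 of 128 codons, with 3 amino acid differences, and 19 of the first 90 bases, again in capitals, differed.
H2AFZ: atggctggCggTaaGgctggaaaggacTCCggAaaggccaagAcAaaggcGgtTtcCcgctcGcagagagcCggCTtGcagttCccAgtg
H2AFV: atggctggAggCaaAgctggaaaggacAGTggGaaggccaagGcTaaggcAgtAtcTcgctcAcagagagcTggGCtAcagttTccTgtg
The members of a pair were thus distinct in sequence. Processed copies were closer: of the 50-base stretches of the canonical H3F3A transcript, 72.7% (742 of 1021) also occurred in transcripts of other genes. The share was 8.28% for H3F3B, all with the H3F3C gene (H3-5), 7.34% for H2AFZ, all with the pseudogene H2AFZP3, and 7.16% for H2AFV. It was 0.324% for H2AFX and 0 for the other 5 genes.

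The variant genes also differed in structure. H1FX (chr3:129314771-129316286), H2AFX (chr11:119093874-119095465), H1F0 (chr22:37805229-37807432) and H2AFJ (chr12:14774405-14778002) had a canonical transcript of 1 exon, of 620 to 2204 nt. H2AFZ (chr4:99948086-99950355) and H2AFV (chr7:44826791-44848087) had 5 exons, H3F3A (chr1:226061851-226072019) and H3F3B (chr17:75776434-75785893) had 4, and H2AFY (chr5:135334381-135399914) and H2AFY2 (chr10:70052544-70112282) had 9. GC content of the canonical transcript was highest in H1FX (68.6%), H2AFX (66.8%) and H2AFJ (63.1%) and lay between 42.8% and 52.9% in the others. Several overlap a gene on the opposite strand: H2AFY2 shares 14060 bases with AIFM2, H2AFY shares 23839 with C5orf66, H3F3B shares 1088 with UNK and H1FX shares 895 with H1FX-AS1. The sources used here do not say whether counting used the strand, so reads of such partners cannot be told apart.

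Recovered reads on genes numbered 13703033 to 17248924 in the inputs and 25134156 to 36008733 in the ORC1 IPs. ORC1 IP 2 stood apart from the other ORC1 IPs on the second principal component (-98.9 against 50.6 and 18.6, 29.7% of the variance). The summed normalised count of 31 mitochondrial genes was 322549 to 596598 in the inputs and 874835 in ORC1 IP 2, against 186258 and 68979 in ORC1 IPs 1 and 3. Of 8 colorectal epithelial markers, 7 were in the table and 6 were well detected, whereas VIL1 reached at most 6.30 normalised counts. Their sum was 47785 to 138549 in the inputs and 145253, 16799 and 68674 in ORC1 IPs 1, 2 and 3. ORC1 IP 2 was thus also lowest in this sum, which came mostly from KRT8, KRT18 and KRT19. EPCAM and CDH1 were lowest in ORC1 IP 2 too, whereas CDX2 was lowest in ORC1 IP 3 (192 against 225 in ORC1 IP 2). Of 5 markers of other cell types, 2 were in the table: ALB was at 0 to 6.97, and COL1A1 was 161 to 298 in the inputs and 432 to 787 in the ORC1 IPs (limma adjusted p = 0.0854). The part of these differences in the values below was not tested.

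The variant genes spanned a wide range of abundance in the nuclear input. Per kilobase of canonical transcript, the mean normalised count in the 3 inputs was highest for H2AFZ, at 11945 ± 2269 (SD, n = 3). H2AFX (6197 ± 2537), H3F3B (5820 ± 289) and H1F0 (5586 ± 2579) followed, and these neighbours did not differ beyond their spread. H2AFY stood at 2392 ± 214, H1FX at 1176 ± 288, H2AFV at 769 ± 263, H2AFY2 at 536 ± 67.8 and H2AFJ at 355 ± 156, and each neighbour among these last 4 lay within the sum of the SDs. H3F3A came last, at 33.2 ± 17.1. Because 72.7% of its 50-base stretches also occur in other transcripts, this count may not give its mRNA level. Within each pair of related genes, H2AFZ thus exceeded H2AFV, H2AFY exceeded H2AFY2 and, in reads counted, H3F3B exceeded H3F3A. The order at the top depended on the length used. Per kilobase of all annotated exons H2AFX (6197) and H1F0 (5586) lay above H2AFZ (4557) and H3F3B (2566).

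**Figure D1:**
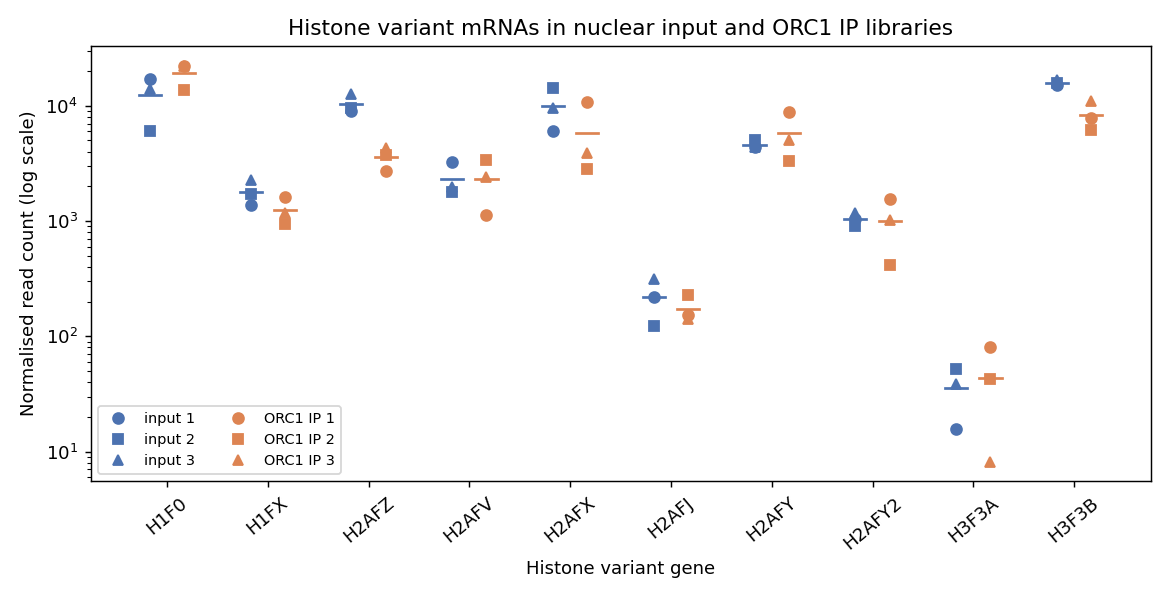
Normalised read count (log axis) of each of the 10 histone variant genes in the 3 input (blue) and 3 ORC1 IP (orange) libraries, with a marker shape per RIP replicate and a horizontal line at each group mean. The groups do not overlap for H2AFZ and H3F3B, both lower in ORC1 IP, and overlap for the other 8 genes; H3F3A lies far below the rest.

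The comparison of ORC1 IP with input asks which nuclear RNAs come down with ORC1. Values are counts scaled per library and thus relative, so less of an mRNA and more of other RNAs in an ORC1 IP cannot be told apart. None of the 10 variant mRNAs passed the threshold in either direction: 0 of 10 had an adjusted p under 0.05 in limma, against 3.69% of the 16513 genes tested. All 10 passed the filter on low values, which asked for an average of 10 normalised reads across the libraries. By threshold direction, 2.28% of all genes tested were called higher and 1.42% lower in ORC1 IP. H2AFZ alone had an unadjusted p under 0.05, 1 of 10 against 21.6% of all genes. On the recovered reads edgeR also called 0 of the 10, and DESeq2 called 1, H2AFZ. The median log2 fold change of the 10 genes was -0.26, with 2 positive and 8 negative, beside 0.01 for all genes tested. For the 7544 tested genes whose canonical transcripts were 620 to 3026 nt long, the range of the variant genes, the median was -0.18, and for the 7300 genes with longer transcripts it was 0.26.

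The study's type of threshold, which the study applied to DESeq2 results, asks for a log2 difference above 1 and an unadjusted p below 0.05. By it, 0 variant genes were enriched in limma, against 10.9% of all genes. In the opposite direction 1 of 10 passed, H2AFZ, against 7.25% of all genes. Counted by groups that did not overlap, 2 of 10 were lower in every ORC1 IP than in any input, H2AFZ and H3F3B, against 13.5% of all genes, and 0 of 10 were higher, against 12.7%. With so few genes, these counts are close to the background.

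**Figure D2:**
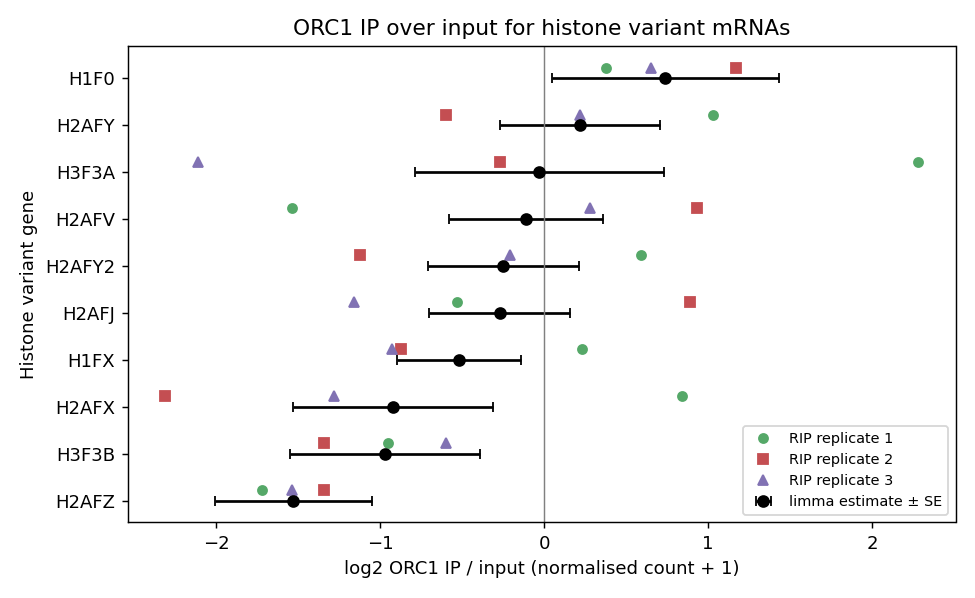
Log2 ratio of ORC1 IP to input for the 10 histone variant genes, as the limma estimate with its SE (black) and as the value in each RIP replicate (coloured markers). H2AFZ and H3F3B were negative and H1F0 positive in all 3 replicates as numbered in the labels, and for the other 7 genes the replicates fell on both sides of 0.

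The largest log2 difference among the variant genes was that of H2AFZ, the gene for H2A.Z.1. H2AFZ counted 8903, 9547 and 12582 normalised reads in the inputs (replicates 1, 2 and 3, in that order here and for the other genes) against 2710, 3765 and 4321 in the ORC1 IPs. Every ORC1 IP lay below every input, and the input mean (10344 ± 1965, SD, n = 3) was 2.87 times the ORC1 IP mean (3599 ± 818). The limma log2 fold change was -1.53 ± 0.48 (SE), with an unadjusted p of 0.00724 and an adjusted p of 0.0907, and 2.96% of the genes tested had a lower value. The log2 ratios in the RIP replicates, -1.72, -1.34 and -1.54, lay within a narrower range than those of any other variant gene. The call depended on the test. DESeq2 on the recovered reads gave an adjusted p of 0.00218 and limma without ORC1 IP 2 one of 0.0103, both past the threshold, whereas edgeR gave 0.0920 and limma with the replicate block 0.201.

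The pseudogene H2AFZP3 showed the same direction. It counted 1020, 1300 and 1563 in the inputs and 260, 354 and 539 in the ORC1 IPs, a log2 fold change of -1.79 ± 0.37 that passed in limma (adjusted p = 0.0264). Of the 50-base stretches of the canonical H2AFZ transcript, 7.34% (60 of 817) also occurred in H2AFZP3. A stretch with a single mismatch does not count, so this share does not measure how alike the gene and its copy are. The first 90 bases of H2AFZP3 differed from those of H2AFZ at the 3 positions in capitals, so reads from such a part are hard to separate.
H2AFZ: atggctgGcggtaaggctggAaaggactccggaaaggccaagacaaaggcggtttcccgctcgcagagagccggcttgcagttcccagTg
H2AFZP3: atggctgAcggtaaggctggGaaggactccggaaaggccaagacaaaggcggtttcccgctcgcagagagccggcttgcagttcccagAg
The sources used here do not say how reads with several matches were treated, so the H2AFZP3 value may hold reads of H2AFZ. The H2AFZP3 call was lost without ORC1 IP 1 (limma adjusted p = 0.0675), ORC1 IP 3 (0.0551), input 2 (0.113) or input 3 (0.210), with total-count scaling (0.0557) and in limma without the trend (0.0641). After the GC and length correction its log2 fold change was -1.15 (limma adjusted p = 0.130). H2AFZP1 and H2AFZP4 had input means of 14.6 and 9.19, too low to add to this.

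H2AFV, the gene for H2A.Z.2, did not share the pattern of H2AFZ. It counted 3239, 1778 and 1961 in the inputs and 1117, 3385 and 2386 in the ORC1 IPs, so the groups overlapped throughout. The log2 fold change was -0.11 ± 0.47 (limma adjusted p = 0.924). The log2 ratio of H2AFZ to H2AFV within a library was 2.19 ± 0.64 (SD, n = 3) in the inputs and 0.76 ± 0.57 in the ORC1 IPs. Every ORC1 IP ratio lay below every input ratio, and the difference of -1.43 reached the smallest p that 3 against 3 libraries allow (two-sided exact permutation test, p = 0.1, Benjamini-Hochberg adjusted p = 0.2 over 4 such ratios). This exact test cannot go below 0.1 with 3 libraries a group.

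The other variant with groups apart was H3F3B, the H3.3 gene with more reads counted. It counted 15000, 15670 and 16558 in the inputs and 7741, 6179 and 10908 in the ORC1 IPs. The inputs were tight (15743 ± 782, SD, n = 3) and all above the ORC1 IPs (8276 ± 2409), a 1.90-fold difference of means. The limma log2 fold change was -0.97 ± 0.58, which did not pass (adjusted p = 0.363), and the adjusted p ranged from 0.0783 with DESeq2 to 0.702 in limma without input 3. H3F3C, a retroposed relative that shares sequence with H3F3B, counted 318 ± 40.5 in the inputs and 181 ± 58.2 in the ORC1 IPs, also without overlap (log2 fold change -0.86 ± 0.38, limma adjusted p = 0.216).

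H3F3A could hardly be measured. The recovered reads numbered 15, 33 and 33 in the inputs and 70, 74 and 11 in the ORC1 IPs, against 6723 to 14636 for H3F3B. Normalised, these were 15.8, 52.0 and 38.6 in the inputs and 80.6, 43.0 and 8.20 in the ORC1 IPs, with the highest and the lowest value both in ORC1 IPs. The log2 fold change of -0.03 ± 0.76 (limma adjusted p = 0.986) had the largest SE of the 10 genes, and its sign changed with the tool (0.32 in edgeR, 0.30 in DESeq2) and with the pseudocount (0.02 at a pseudocount of 5). H3F3A was also the gene with most of its 50-base stretches shared with other transcripts, and its level is therefore uncertain. The copies H3F3AP4 and H3F3AP6 had input means of 19.9 and 10.1, with ORC1 IP means of 6.12 and 2.93.

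H2AFX, which encodes the damage-marked H2A.X, had groups that overlapped through ORC1 IP 1. It counted 6044, 14093 and 9463 in the inputs and 10813, 2832 and 3903 in the ORC1 IPs. ORC1 IP 1 lay within the input range, while ORC1 IPs 2 and 3 lay below it. The log2 ratios were 0.84, -2.31 and -1.28, and the limma estimate was -0.92 ± 0.61 (adjusted p = 0.415). Among the variant genes H2AFX is the one with the stem-loop shown above, and its values per replicate were set beside those of the replication-dependent histone genes, whose median log2 ratios were -0.12, -3.13 and -2.49. The 4 replication-dependent genes with the most reads had ratios of 2.18, -2.81 and -1.04 (HIST1H1E), 1.76, -3.24 and -1.42 (HIST1H1C), 1.08, -2.83 and -1.86 (HIST1H2BD), and -1.88, -3.59 and -4.15 (HIST1H3B). In H2AFX and in each of these 4, replicate 1 was the highest of the 3. The same holds for H1FX, H2AFY, H2AFY2 and H3F3A among the variant genes, so this order of replicates was not particular to genes with a stem-loop. These ratios rest on the replicate numbers of the labels, and the library titles pair the libraries in the same way. The deviations of same-numbered libraries correlated negatively for replicates 1 and 2 (-0.322 and -0.240). Those of input 2 and ORC1 IP 1 correlated at 0.497. With 3 libraries a group these correlations cannot decide whether the numbering is right, and it was not tested. ORC1 IP 1 lay above input 1 but below input 2 in H2AFX, so its positive ratio holds only under the numbering as given. The limma estimates do not use the numbers.

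**Figure D3:**
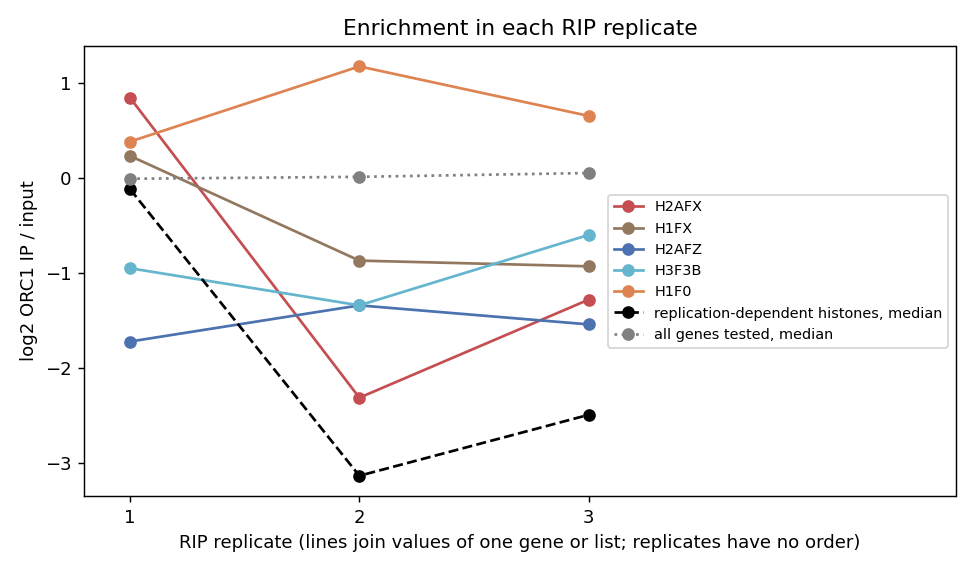
Log2 ratio of ORC1 IP to the input of the same number for 5 variant genes and, as medians, for 49 replication-dependent histone genes (dashed) and all genes tested (dotted), in each of 3 RIP replicates. H2AFX runs from 0.84 in replicate 1 to -2.31 in replicate 2, whereas H2AFZ stays between -1.72 and -1.34 and H1F0 stays above 0.

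The remaining core variants lay close to no difference. H2AFJ, the gene for H2A.J, counted 221, 123 and 316 in the inputs and 152, 229 and 141 in the ORC1 IPs (log2 fold change -0.27 ± 0.43, limma adjusted p = 0.771). The macroH2A genes had alike profiles across libraries. H2AFY (macroH2A1) counted 4350, 5059 and 4345 in the inputs and 8889, 3335 and 5046 in the ORC1 IPs, and H2AFY2 (macroH2A2) counted 1037, 905 and 1167 in the inputs and 1565, 416 and 1010 in the ORC1 IPs. For both, ORC1 IP 1 was the highest library and ORC1 IP 2 the lowest, and the inputs lay between them. The log2 fold changes were 0.22 ± 0.49 for H2AFY and -0.25 ± 0.46 for H2AFY2 (limma adjusted p = 0.846 and 0.801). The sign of both depended on the analysis: H2AFY was -0.48 after a correction for GC content and length, and H2AFY2 was 0.29 without ORC1 IP 2. The log2 ratio of H2AFY to H2AFY2 was 2.15 ± 0.30 (SD, n = 3) in the inputs and 2.61 ± 0.35 in the ORC1 IPs, a difference of 0.46 (two-sided exact permutation test, p = 0.2).

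Of the 10 genes, a linker histone gene had the highest log2 fold change. H1F0, whose product H1.0 accumulates in cells that leave the cycle, counted 17018, 5998 and 13919 in the inputs and 22189, 13542 and 21903 in the ORC1 IPs. It was higher in the ORC1 IP of each RIP replicate, with log2 ratios of 0.38, 1.17 and 0.65, but input 1 lay above ORC1 IP 2, so that this holds only if the numbers of inputs 1 and 2 are right. The log2 fold change of 0.74 ± 0.69 did not pass (limma adjusted p = 0.577), and 79.6% of the genes tested had a lower one. H1FX, for H1x, counted 1377, 1724 and 2245 in the inputs and 1615, 941 and 1178 in the ORC1 IPs, with a log2 fold change of -0.52 ± 0.38 (limma adjusted p = 0.450). The log2 ratio of H1F0 to H1FX was 2.69 ± 0.92 (SD, n = 3) in the inputs and 3.95 ± 0.24 in the ORC1 IPs, with every ORC1 IP above every input (difference 1.26, two-sided exact permutation test, p = 0.1, adjusted p = 0.2). Among replication-dependent linker histones, 4 were tested, with -0.87 as their median.

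Replication-dependent histone genes are the closest relatives of the variant genes and lay lower in ORC1 IP. The table held 58 such genes, taken by symbol with pseudogene symbols included, of which 49 passed the filter. Of these 49, 0 had a positive log2 fold change and 19 passed as lower in limma, against 1.42% of all genes tested. The calls were uneven between classes: 9 of 9 H4, 7 of 8 H3, 2 of 12 H2A, 1 of 16 H2B and 0 of 4 H1 genes. By replicate as numbered, 21 of the 49 had a positive log2 ratio in replicate 1, 2 in replicate 2 and 0 in replicate 3. The median of the 49 was -1.82, beside -0.26 for the variant genes. The median was -1.81 for 12 H2A genes, -1.49 for 16 H2B genes, -2.49 for 8 H3 genes and -3.17 for 9 H4 genes. H3F3B, at -0.97, lay above the whole range of the replication-dependent H3 genes, -3.21 to -2.17. H2AFZ, H2AFX, H2AFV and H2AFJ lay at -1.53 to -0.11, above the median of the replication-dependent H2A genes, whose range was -2.31 to -0.62. The difference between the lists was not tested. The 19 calls fell to 2 without input 3, 6 without input 2 and 3 without ORC1 IP 3. Over all genes tested, calls also fell, from 610 to 29 without input 3, 87 without input 2 and 47 without ORC1 IP 3. With the replicate block the calls of replication-dependent genes numbered 17 in limma and 11 in edgeR. The GC and length correction could be made for only 26 of the 49 genes, those with an annotation match, and of the 9 calls among these 26 it left 4, with the median at -1.49 against -1.74 for the same 26 genes uncorrected. In the 18 alternatives without this correction the median lay between -2.40 and -1.54.

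**Figure D4:**
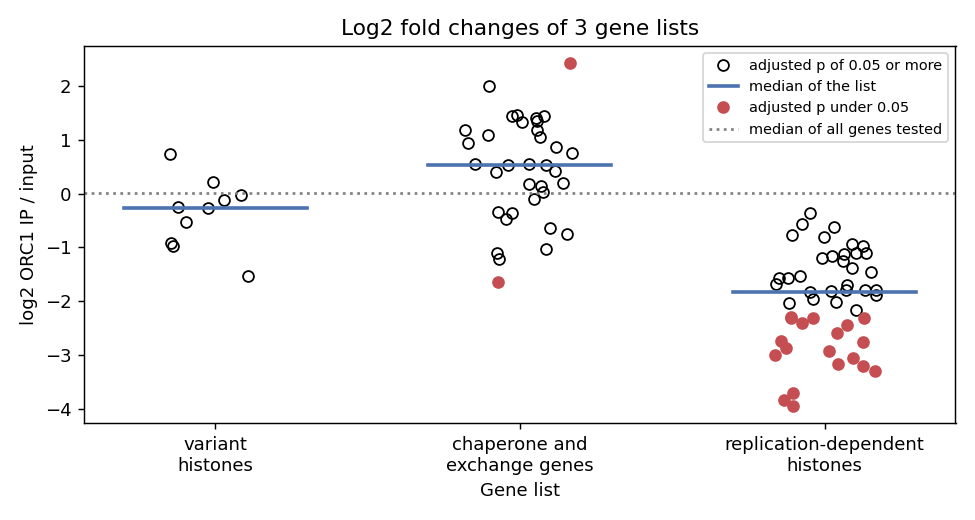
Log2 fold change of ORC1 IP over input for each of 10 variant histone genes, 35 chaperone and exchange genes and 49 replication-dependent histone genes. Red points passed an adjusted p under 0.05 in limma, blue lines are the list medians (-0.26, 0.53 and -1.82) and the dotted line is the median of all genes tested (0.01).

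The mRNAs of proteins that carry, deposit or read the variants were taken as the other genes of the pathway. All 35 were tested, and 25 had a positive and 10 a negative log2 fold change, against 8375 and 8138 of all genes tested. The median of the 35 was 0.53. The sign of the median differed between RIP replicates: it was 1.40, -0.65 and 0.84 in replicates 1, 2 and 3. In replicate 2, 14 of the 35 genes were positive. After the GC and length correction the median of the list was 0.27. In limma 1 of the 35 passed as higher and 1 as lower, against 2.28% and 1.42% of all genes tested. With so few genes, these counts are close to the background. ATRX, the helicase that works with DAXX to deposit H3.3 at repeats, counted 1671, 1098 and 721 in the inputs and 6139, 3299 and 10224 in the ORC1 IPs. It rose by 2.43 ± 0.49 on the log2 scale (limma adjusted p = 0.0239), with every ORC1 IP above every input. OIP5 (Mis18-beta), which prepares centromeres for the H3 variant CENP-A, counted 252, 287 and 264 in the inputs and 67.9, 87.7 and 103 in the ORC1 IPs. It fell by 1.64 on the log2 scale (SE 0.37, limma adjusted p = 0.0352).

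The calls of the pathway genes depended on single libraries, with ATRX called in 14 and OIP5 in 9 of 20 alternatives. ATRX lost its call without input 2 (limma adjusted p = 0.105), input 3 (0.222) or ORC1 IP 3 (0.0828), and its value was 1.75 after a GC and length correction (0.0579). OIP5 kept its call without ORC1 IP 2 (0.00830), lost it when any of the other 5 libraries was left out, with an adjusted p up to 0.230, and had an adjusted p of 0.0587 in limma with the replicate block. Without ORC1 IP 2 the number of calls in the list was 20, of which 16 were higher, against 2 with all libraries. Over all 16513 genes tested, calls also rose without ORC1 IP 2, from 610 to 3018. They fell to 87 without input 2, 29 without input 3 and 47 without ORC1 IP 3, so these shifts were not particular to the list.

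By role, the median log2 fold change was 0.53 for 7 genes of H3.3 deposition, 0.67 for 4 of replication-coupled deposition, 0.37 for 12 of H2A.Z exchange, -0.42 for 4 of CENP-A deposition, 1.19 for 5 general chaperones and 0.42 for 3 readers of H2A.X or macroH2A. NAP1L1, a nucleosome assembly chaperone, had the largest value after ATRX (3472 ± 1735 in the inputs and 15300 ± 9864 in the ORC1 IPs, SD, n = 3, log2 fold change 2.01 ± 0.62, limma adjusted p = 0.0893). ZNHIT1, a subunit of the SRCAP complex that exchanges H2A for H2A.Z, had the smallest after OIP5 (1127 ± 332 and 486 ± 136, log2 fold change -1.21 ± 0.37, limma adjusted p = 0.0845). Of the 12 genes of H2A.Z exchange 8 had a positive and 4 a negative log2 fold change, so ZNHIT1 does not stand for its group.

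To describe the shared profile of the variant genes, log2 values were standardised per gene and averaged over the 10 genes. Inputs 1, 2 and 3 stood at 0.18, 0.04 and 0.56, and ORC1 IPs 1, 2 and 3 at 0.17, -0.62 and -0.32, lowest in the ORC1 IP that stood apart. The 5 genes whose profile over the 6 libraries was most like it were CEBPA (Pearson r = 0.983), RNASET2 (0.982), VASP (0.980), RPS27A (0.979) and NOP10 (0.976). These are descriptions over 6 libraries that all genes share, chosen as the highest of all genes tested, and carry no p. CEBPA averaged only 12.9 normalised reads, near the filter of 10, so its profile is uncertain.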

How the data were processed

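According to the study's methods and labels, native ORC1 RIP-seq was done on sonicated, pre-cleared nuclear lysate, and stranded libraries of ribosome-depleted total RNA were sequenced. Reads were trimmed with Trimmomatic, aligned with STAR to hg19, and counted per Ensembl gene with featureCounts. The authors deposited a signal per library, which is each gene's count over that library's size factor. Whole reads were recovered for 100% of the values in each library (tolerance 0.001). The deposited fold change, standard error, test statistic and p-value columns of the authors were not used. The files hold no control IgG library, so background per gene was not measured here.

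Log2(normalised count + 1) was kept for 16513 genes whose mean reached 10, and was tested with limma 3.58.1 (R 4.3.3, intensity trend, 3 inputs against 3 ORC1 IPs, two-sided, Benjamini-Hochberg over all genes tested, threshold 0.05). This scale understates the change of low genes. edgeR 4.0.16 (quasi-likelihood) and DESeq2 1.42.0 on recovered reads, other scalings, pseudocounts and filters, a GC and length correction, a replicate block and leaving out each library were alternatives. Scripts were tested on simulated data. Precision is limited by the 3 libraries a group, beside counting error for H3F3A.

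The labels pair an input and an ORC1 IP by RIP number. The deviations from the group mean of an input and of its ORC1 IP correlated at -0.322, -0.240 and 0.215, so the block stayed an alternative. Transcripts and coordinates are from GENCODE v44 on GRCh38 and were joined by Ensembl identifier (97.3% of genes tested), since no hg19 annotation was used here. Canonical transcripts are those marked by Ensembl.

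Named were all 10 variant genes, the pathway genes past the threshold and the 2 largest and 2 smallest, the 4 replication-dependent genes (symbols starting HIST1H to HIST4H) with the highest mean count, copies by symbol, and the 5 genes most alike. Members and lists were chosen with earlier results of these data known.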

Additional observations from a re-analysis of the deposited data

How the results depend on the processing

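Over 20 alternatives, the direction of H2AFZ, H3F3B, H2AFX, H1FX and H1F0 held in all, with H2AFZ between -1.75 and -1.34. The sign varied for H3F3A, H2AFY, H2AFV, H2AFJ and H2AFY2. The number of variant genes called was 0, except 1 with DESeq2 and 0 to 1 when a library was left out, the 1 without ORC1 IP 2; it was H2AFZ both times. The replicate block changed no call of a variant gene (0 called; H2AFZ adjusted p = 0.201 in limma and 0.238 in edgeR). The count for the pathway list, 2, was 0 in limma without the trend, 1 with total-count scaling, 3 with TMM or upper-quartile scaling, 3 in edgeR, 11 in DESeq2, 1 with the replicate block in limma and in edgeR, 0 with the GC and length correction with or without the block, and 0 to 20 when a library was left out. Total-count scaling shifted the median of all genes from 0.01 to -0.19 and that of the variant genes from -0.26 to -0.47; the share of higher calls over all genes went from 376 of 610 to 87 of 183. Over all genes the number of calls was 1984 in DESeq2, 239 in limma without the trend, 210 and 105 with the GC and length correction without and with the block, and 29 to 3018 when a library was left out. The causes of these shifts were not tested.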
